A study of Homo sapiens with 12 samples.

Results

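The lysosomal genes described here are 32 genes matched by name in the gene table, and all 32 were found among its 58735 genes. They comprise 9 glycosidases, 7 enzymes that degrade glycosaminoglycans, 5 enzymes and activators of sphingolipid breakdown, 2 other hydrolases (PPT1 and TPP1) with progranulin (GRN), 6 proteins of the lysosomal membrane, and the transcription factors TFEB and TFE3. RNA was measured by poly(A) RNA-seq in N/TERT-2G cells, a telomerase-immortalised line of human skin keratinocytes, in a study of vulvar lichen sclerosus. The 4 groups of 3 libraries each were transfected with an siRNA against ATF3, APOE or CXCL14, or with a negative control siRNA. Each well of a 6-well plate received 100 pmol of siRNA with 5 µl of a Lipofectamine reagent, a lipid carrier that all 4 groups share, and the medium was changed after 6 h. The sources used here give neither the siRNA sequences, the number of siRNAs per gene nor the time of harvest, and they do not say if the 3 libraries of a group came from separate cultures, so p-values measure the spread between libraries, which may be technical.

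Lysosomes are acidic organelles in which proteins, glycans, lipids and nucleic acids are taken apart by soluble acid hydrolases. Most of these enzymes are tagged with mannose 6-phosphate in the Golgi and delivered by receptors, while membrane proteins shield the lysosome's limiting membrane and carry the products out. TFEB and TFE3 are basic helix-loop-helix factors that enter the nucleus when mTORC1 at the lysosome is inactive, and they bind an E-box motif found in front of many lysosomal genes. In the epidermis, lysosomal glycosidases and sphingolipid enzymes are known for their part in lipid processing and in the turnover of cell contents as keratinocytes differentiate.

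Libraries held 16225691 to 22246755 counts, and the 32 genes took 0.396% to 0.617% of them. Each targeted gene was lower with its own siRNA: ATF3 averaged 12.01 CPM (read counts scaled to a common library size) with ATF3 siRNA and 42.1 CPM in control libraries, APOE averaged 0.190 CPM with APOE siRNA and 3.17 CPM in controls, and CXCL14 averaged 0.0357 CPM with CXCL14 siRNA and 0.489 CPM in controls. The APOE and CXCL14 means with their own siRNAs lie near or under the level of 3 counts, which is 0.136 to 0.191 CPM, so these checks rest on few reads. CXCL14 itself was 8.55 CPM with APOE siRNA, higher than in controls (edgeR adjusted p = 3.48e-06). With CXCL14 siRNA ATF3 averaged 68.2 CPM and APOE 5.87 CPM, both also higher than in controls (edgeR adjusted p = 4.96e-07 and 0.00144). Differences from control of APOE and CXCL14 with ATF3 siRNA, and of ATF3 with APOE siRNA, did not reach an adjusted p under 0.05. Basal keratinocyte markers were abundant in all 12 libraries, while PTPRC, TYROBP and CD3E of immune cells and TYR of melanocytes had 0 counts in every library and CD68, itself a macrophage lysosomal protein, had 0 to 6 counts. Other markers of the same lists were detected in every library, with 18 to 108 counts of CD14, 8 to 124 of CSF1R, 11 to 35 of PMEL and 4 to 15 of MLANA.

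The E-box that TFEB and TFE3 bind has the core CACGTG, and its palindromic form TCACGTGA is the one known from lysosomal promoters. RefSeq promoter windows of GRCh38.p14, running from 250 bases before to 50 bases after a gene's start, were on hand for 24 of the 32 genes. CACGTG, which reads the same on both strands, occurred in 7 of the 24 genes (29.2%), namely GAA, NEU1, ARSB, GALNS, LAMP1, CD63 and MCOLN1, and in 8.77% of 27305 genes. TCACGTGA, also its own reverse complement and always holding a CACGTG, occurred in 4 of the 24 (16.7%) and in 1.18% of all genes. These 4 windows are printed because their genes carry the full palindrome and include some of the highest fold changes below; capitals mark each CACGTG. GAA is on the plus strand at chr17:80101331-80101630, GALNS on the minus strand at chr16:88856898-88857197, LAMP1 on the plus strand at chr13:113296989-113297288 and MCOLN1 on the plus strand at chr19:7522374-7522673.
GAA: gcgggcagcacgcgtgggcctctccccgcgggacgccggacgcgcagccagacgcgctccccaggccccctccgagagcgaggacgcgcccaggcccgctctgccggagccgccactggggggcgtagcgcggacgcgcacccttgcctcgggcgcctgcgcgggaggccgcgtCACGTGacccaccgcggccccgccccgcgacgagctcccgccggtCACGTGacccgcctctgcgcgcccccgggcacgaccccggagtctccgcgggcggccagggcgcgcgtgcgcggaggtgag
GALNS: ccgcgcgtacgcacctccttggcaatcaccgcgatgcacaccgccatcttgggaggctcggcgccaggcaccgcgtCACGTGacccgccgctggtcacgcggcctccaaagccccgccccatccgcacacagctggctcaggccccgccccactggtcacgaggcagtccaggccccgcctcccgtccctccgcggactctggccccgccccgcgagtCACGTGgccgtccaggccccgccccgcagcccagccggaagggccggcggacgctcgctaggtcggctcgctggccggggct
LAMP1: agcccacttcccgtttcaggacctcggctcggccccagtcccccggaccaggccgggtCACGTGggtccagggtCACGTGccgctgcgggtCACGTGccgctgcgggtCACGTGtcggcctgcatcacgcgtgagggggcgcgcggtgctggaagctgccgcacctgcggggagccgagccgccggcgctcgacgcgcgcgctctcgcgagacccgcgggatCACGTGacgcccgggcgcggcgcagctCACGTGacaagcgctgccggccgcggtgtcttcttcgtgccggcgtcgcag
MCOLN1: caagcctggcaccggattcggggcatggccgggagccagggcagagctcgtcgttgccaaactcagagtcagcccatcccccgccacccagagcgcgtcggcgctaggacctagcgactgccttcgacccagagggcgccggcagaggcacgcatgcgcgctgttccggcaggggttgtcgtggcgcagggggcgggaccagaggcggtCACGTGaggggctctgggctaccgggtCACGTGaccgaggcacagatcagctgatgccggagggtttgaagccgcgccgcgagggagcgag

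GAA held 2 full palindromes, centred at -73 and -28 with the start counted as 0, and MCOLN1 held 2, at -38 and -11. LAMP1 held 6 CACGTG cores, of which those at -25 and 2 were full palindromes. GALNS held a palindrome at -171 and a core with a 5′ T at -29. NEU1 held 1 core, ARSB 1 in 1 of its 2 windows and CD63 1 in 1 of its 8 windows. A match is a description of the letters in this window, and binding was not measured.

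**Figure D1:**
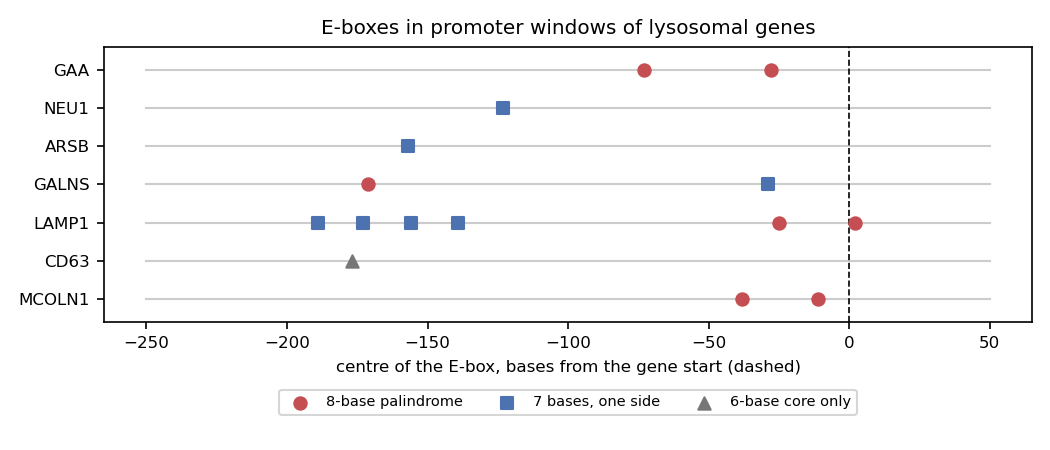
Positions of CACGTG cores in the RefSeq promoter windows of the 7 lysosomal genes that hold one, as the distance in bases from the gene's start (x axis), 1 row per gene; marker types separate the full palindrome TCACGTGA, a core with a T before it on either strand, and the bare core. LAMP1 has 6 cores, and the full palindrome is in GAA, GALNS, LAMP1 and MCOLN1.

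In control keratinocytes the 32 genes spanned a wide range of levels, compared per length as deposited FPKM. The saposin precursor PSAP, whose cleaved peptides activate several sphingolipid hydrolases, was highest at 296 ± 4.93 FPKM (SD, n = 3), followed by GRN at 196 ± 12.6, the tetraspanin CD63 at 113 ± 3.69, LAMP1 at 76.5 ± 5.60 and the ganglioside activator GM2A at 56.1 ± 1.94 FPKM. The ranges of these 5 genes over the 3 control libraries did not overlap. TFE3, at 24.6 ± 0.805 FPKM, stood far above its relative TFEB, at 1.69 ± 0.298 FPKM. ARSA (22.4 FPKM) and LAMP2 (21.6 FPKM) overlapped in their ranges and came next after TFE3, and PPT1, GLB1, SCARB2, TPP1 and NEU1 lay between 10.6 and 18.5 FPKM. From SMPD1 (8.46 FPKM) down to FUCA1 (5.45 FPKM) each gene overlapped with its neighbour in the order, so that neighbours among these genes cannot be ranked. They include GAA at 6.56 FPKM and IDS at 6.04 FPKM. The low end held TFEB, GALNS (1.65 FPKM), HEXA (1.63 FPKM), ARSB (1.502 FPKM), IDUA (1.06 FPKM) and GALC, the galactosylceramidase, at 0.945 ± 0.141 FPKM. The lengths are unions of annotated exons, which reach 19341 bases for SCARB2, 15378 for ASAH1 and 12611 for HEXA. A gene that uses a short part of its union reads lower on this scale. HEXA, at the low end in FPKM, averaged 20.8 CPM in controls, above FUCA1 at 11.3 CPM. Summed over the 32 genes, the libraries held 1002, 982 and 1067 FPKM with ATF3 siRNA, 1144, 1144 and 1229 FPKM with APOE siRNA and 1329, 1399 and 1443 FPKM with CXCL14 siRNA, against 967, 946 and 987 FPKM with control siRNA. PSAP and GRN alone make up a large part of these sums, and 1 of the 3 ATF3 libraries lies inside the control range.

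**Figure D2:**
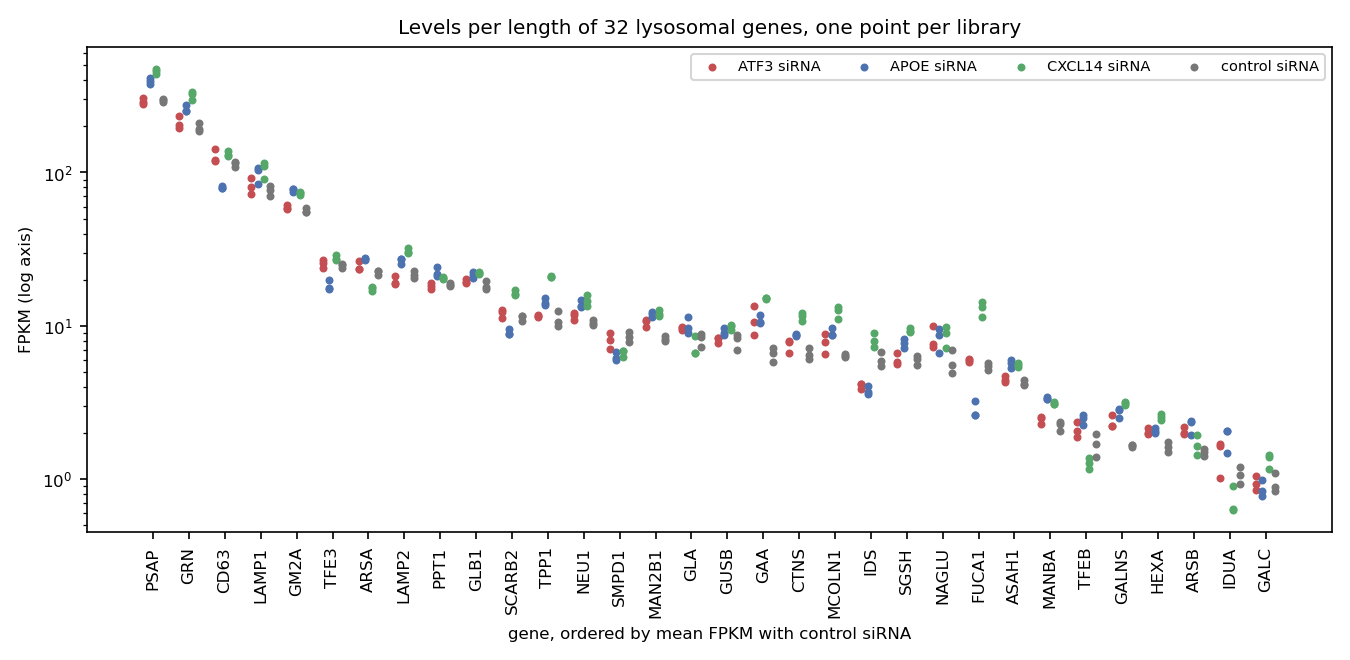
Level of each of the 32 genes in every library as deposited FPKM on a log axis, with genes ordered by their control mean and colours for the 4 siRNA groups. PSAP, GRN, CD63, LAMP1 and GM2A stand at the top and GALC at the bottom in control libraries, at 0.945 FPKM.

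Compared with control siRNA, lysosomal genes were mostly higher after APOE or CXCL14 siRNA and changed less after ATF3 siRNA. All 32 passed the filter on low counts, and a gene was called changed at an edgeR quasi-likelihood adjusted p under 0.05 over 14920 genes. With APOE siRNA 24 of the 32 rose (75%, against 22.3% of all genes tested) and 6 fell (18.8%, against 22.5%), and the median log2 fold change of the 32 was 0.39, against 0.01 for all genes. With CXCL14 siRNA 25 rose (78.1%, against 27.4%) and 4 fell (12.5%, against 28.4%), with a median of 0.48 against 0.01. With ATF3 siRNA 6 rose (18.8%, against 11.2%) and 1 fell (3.12%, against 9.14%), with a median of 0.13 against 0.00; without control replicate 1 the calls over all genes dropped to 1057 higher and 859 lower, while 5 and 1 of the 32 were still called. The changes were small: in these comparisons only GAA and FUCA1, both with CXCL14 siRNA, were called past 2-fold. The 3 comparisons share their control libraries and are not independent of each other. The 32 genes were chosen with earlier results of these data known. Their shares beside those of all genes are therefore a description and not a test. In RNA from whole cultures, more transcript per cell and more cells of a kind that hold it cannot be told apart.

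**Figure D3:**
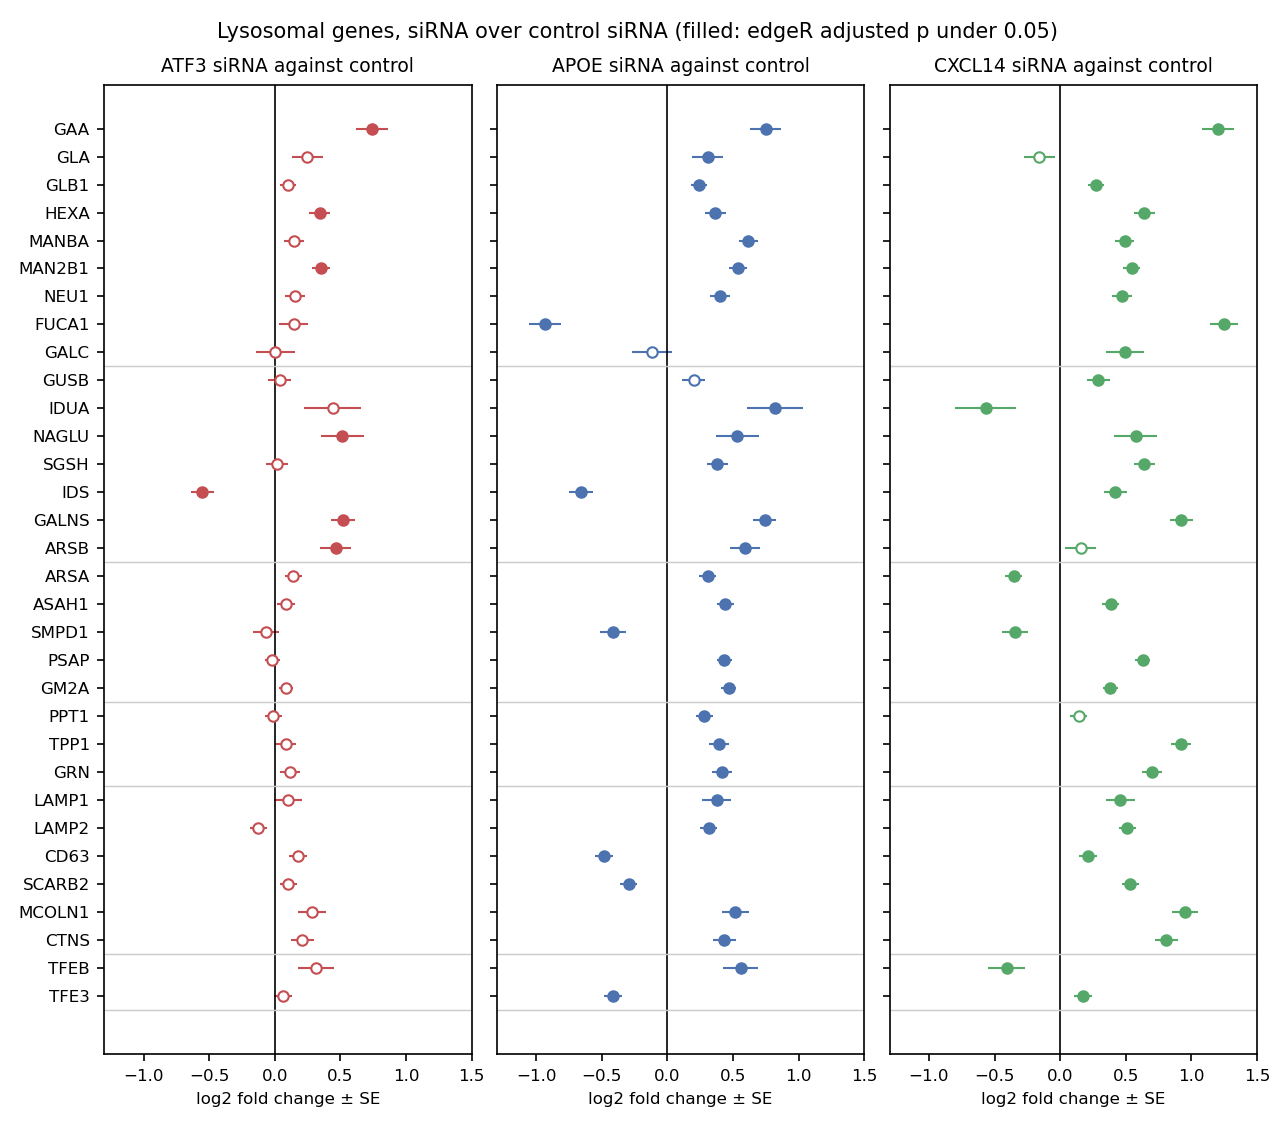
Log2 fold change of each lysosomal gene for ATF3, APOE and CXCL14 siRNA against control siRNA, with bars of 1 SE from edgeR, grey lines between the classes and filled points for genes called at an adjusted p under 0.05. FUCA1 lies at -0.94 with APOE siRNA and at 1.25 with CXCL14 siRNA, while GAA lies at 0.74 or above in all 3 comparisons.

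Among the 9 glycosidases, which cut sugars from glycoproteins, glycogen and glycolipids, 7 rose and 1 fell with APOE siRNA, 8 rose and none fell with CXCL14 siRNA, and 3 rose and none fell with ATF3 siRNA. The counts of this and the other classes stand beside the shares of all genes tested that rose or fell. These shares were 22.3% and 22.5% with APOE siRNA, 27.4% and 28.4% with CXCL14 siRNA, and 11.2% and 9.14% with ATF3 siRNA. GAA, the acid alpha-glucosidase that degrades lysosomal glycogen, read 45.9, 55.3 and 70.7 CPM with ATF3 siRNA, 55.3, 55.2 and 62.0 CPM with APOE siRNA and 78.5, 79.9 and 78.2 CPM with CXCL14 siRNA, against 30.4, 34.7 and 37.6 CPM in control libraries. Every knockdown library exceeded every control library, and the ATF3 libraries were the most spread. GAA rose 1.67-fold with ATF3 siRNA (log2 0.74 ± 0.12 SE, edgeR adjusted p = 0.000484), 1.68-fold with APOE siRNA (0.75 ± 0.12, adjusted p = 0.000109) and 2.30-fold with CXCL14 siRNA (1.20 ± 0.12, adjusted p = 3.44e-07). FUCA1, the alpha-fucosidase, behaved differently under the 3 siRNAs. It read 12.7, 12.1 and 12.6 CPM with ATF3 siRNA, 5.43, 5.52 and 6.82 CPM with APOE siRNA and 27.2, 23.5 and 29.4 CPM with CXCL14 siRNA, against 11.3, 11.8 and 10.8 CPM in controls. APOE libraries thus all lay below the controls and CXCL14 libraries all above. FUCA1 fell by 0.94 ± 0.12 on the log2 scale with APOE siRNA (edgeR adjusted p = 1.09e-05) and rose by 1.25 ± 0.11 with CXCL14 siRNA (adjusted p = 5.55e-08), and with ATF3 siRNA its difference was 0.14 ± 0.11 (adjusted p = 0.401).

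The alpha-mannosidase MAN2B1 had 59.3, 54.0 and 58.9 CPM with ATF3 siRNA, 62.4, 65.7 and 67.6 CPM with APOE siRNA and 62.5, 65.4 and 69.1 CPM with CXCL14 siRNA, against 44.6, 46.6 and 43.8 CPM in control libraries. No knockdown library overlapped with the controls, and the increases were 1.28-fold, 1.45-fold and 1.46-fold (edgeR adjusted p = 0.00163, 7.81e-06 and 3.4e-06). The beta-mannosidase MANBA, which removes the last mannose of N-glycans, had 30.3, 27.4 and 30.2 CPM with ATF3 siRNA, 41.2, 40.3 and 40.2 CPM with APOE siRNA and 36.9, 36.7 and 37.9 CPM with CXCL14 siRNA, against 24.3, 27.0 and 28.2 CPM in controls. Only its ATF3 libraries overlapped with the controls, and it rose 1.53-fold with APOE siRNA (adjusted p = 4.94e-06) and 1.41-fold with CXCL14 siRNA (adjusted p = 3.01e-05). HEXA encodes the alpha subunit of beta-hexosaminidase A, which degrades GM2 ganglioside. It read 25.7, 25.5 and 27.8 CPM with ATF3 siRNA, 27.7, 26.5 and 25.9 CPM with APOE siRNA and 30.9, 32.3 and 34.0 CPM with CXCL14 siRNA, against 19.2, 20.6 and 22.5 CPM in controls, again without overlap. Its log2 fold changes were 0.34 ± 0.08, 0.36 ± 0.08 and 0.64 ± 0.08 (edgeR adjusted p = 0.00737, 0.00173 and 4.23e-06, for the ATF3, APOE and CXCL14 siRNAs in that order). The sialidase NEU1 and the beta-galactosidase GLB1 rose with APOE siRNA (1.32-fold and 1.18-fold) and with CXCL14 siRNA (1.38-fold and 1.21-fold), with values of 1.11-fold and 1.07-fold with ATF3 siRNA that were not called. GALC rose 1.41-fold with CXCL14 siRNA, and its difference with APOE siRNA was -0.12 (95% interval -0.41 to 0.18). GLA, the alpha-galactosidase A, was called with APOE siRNA alone, at 1.24-fold, and that call was lost in 12 of 20 alternative settings, including leaving out APOE replicate 2 or 3, control replicate 2 or 3, or any of the ATF3 libraries (adjusted p up to 0.224).

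Of the 7 enzymes that take glycosaminoglycan chains apart, 5 rose and 1 fell with APOE siRNA, 5 rose and 1 fell with CXCL14 siRNA, and 3 rose and 1 fell with ATF3 siRNA. With 7 genes, 1 fall was not far from the shares of all genes that fell, at 22.5%, 28.4% and 9.14% in that order. GALNS, the sulfatase of keratan and chondroitin 6-sulfate, read 19.1, 19.1 and 22.3 CPM with ATF3 siRNA, 21.5, 24.6 and 24.4 CPM with APOE siRNA and 26.0, 26.9 and 27.1 CPM with CXCL14 siRNA, against 14.1, 14.2 and 13.9 CPM in controls. The knockdown libraries all lay above the narrow control range. Its log2 increases were 0.52 ± 0.09, 0.74 ± 0.09 and 0.92 ± 0.09 (edgeR adjusted p = 0.000749, 5.45e-06 and 2.01e-07). IDS, the iduronate 2-sulfatase of heparan and dermatan sulfate, went the other way with 2 of the siRNAs. It had 39.7, 39.8 and 36.6 CPM with ATF3 siRNA, 38.2, 34.3 and 35.4 CPM with APOE siRNA and 74.9, 84.1 and 68.8 CPM with CXCL14 siRNA, against 63.5, 55.2 and 51.6 CPM in control libraries. ATF3 and APOE libraries lay below every control and CXCL14 libraries above. IDS fell by 0.55 ± 0.09 with ATF3 siRNA (edgeR adjusted p = 0.000423) and by 0.66 ± 0.09 with APOE siRNA (adjusted p = 2.02e-05) and rose by 0.42 ± 0.09 with CXCL14 siRNA (adjusted p = 0.000658) on the log2 scale. A near-identical pseudogene copy lies beside IDS, so part of its reads may have been assigned elsewhere. AC244197.3, with a mean of 2.17 counts, also overlaps 16.5% of IDS exon bases on the same strand. Same-strand genes likewise overlap at least 13.1% of the exon bases of MAN2B1, 12.6% of NAGLU and 11.6% of TPP1. The effect of these overlaps on the counts was not tested.

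ARSB, the N-acetylgalactosamine 4-sulfatase, had 20.1, 18.6 and 18.2 CPM with ATF3 siRNA, 17.97, 21.9 and 22.4 CPM with APOE siRNA and 17.9, 15.02 and 13.2 CPM with CXCL14 siRNA, against 14.4, 13.8 and 13.1 CPM in controls. The ATF3 and APOE libraries stood clear of the controls, and ARSB rose 1.38-fold with ATF3 siRNA (edgeR adjusted p = 0.0106) and 1.51-fold with APOE siRNA (adjusted p = 0.000628), while the CXCL14 libraries overlapped with the controls. NAGLU, an alpha-N-acetylglucosaminidase of heparan sulfate, varied widely between replicates. It read 22.2, 23.2 and 30.5 CPM with ATF3 siRNA, 20.4, 26.9 and 29.5 CPM with APOE siRNA and 21.8, 27.5 and 29.6 CPM with CXCL14 siRNA, against 16.97, 14.9 and 21.2 CPM in controls. One APOE library fell inside the control range. NAGLU was called higher with all 3 siRNAs, at 1.43-fold, 1.44-fold and 1.49-fold (edgeR adjusted p = 0.0368, 0.0151 and 0.00679). The ATF3 call was lost without ATF3 replicate 2 or 3 or control replicate 1 or 2 (adjusted p up to 0.159), and the APOE call without APOE replicate 2 or 3 or control replicate 1 or 2 (up to 0.0812). The heparan sulfamidase SGSH rose 1.30-fold with APOE siRNA (adjusted p = 0.00125) and 1.56-fold with CXCL14 siRNA (adjusted p = 4.51e-06), against 1.01-fold with ATF3 siRNA. The alpha-iduronidase IDUA averaged 7.64 CPM with APOE siRNA and 2.92 CPM with CXCL14 siRNA, against 4.31 CPM in controls, and was called higher with APOE siRNA (1.77-fold, adjusted p = 0.00473) and lower with CXCL14 siRNA (0.674-fold, adjusted p = 0.0457). The second call was lost without ATF3 replicate 2, CXCL14 replicate 1 or 3 or control replicate 1 or 2 and in 3 other settings (adjusted p up to 0.146), and 13.3% of IDUA's exon bases overlap with SLC26A1 on the other strand, whose reads cannot be separated without a stated strand setting. The beta-glucuronidase GUSB rose 1.22-fold with CXCL14 siRNA, a call lost without control replicate 1 (adjusted p = 0.0596), and it too has pseudogene copies.

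Of the 5 enzymes and activators of sphingolipid breakdown, 4 rose and 1 fell with APOE siRNA, and 3 rose and 2 fell with CXCL14 siRNA. PSAP had 947, 920 and 1005 CPM with ATF3 siRNA, 1306, 1256 and 1366 CPM with APOE siRNA and 1432, 1517 and 1546 CPM with CXCL14 siRNA, against 973, 949 and 987 CPM in controls. Its ATF3 libraries surrounded the control range, and its APOE and CXCL14 libraries lay above it. PSAP rose 1.35-fold with APOE siRNA (log2 0.43 ± 0.06, edgeR adjusted p = 1.83e-05) and 1.54-fold with CXCL14 siRNA (0.63 ± 0.06, adjusted p = 1.63e-07), and its ATF3 difference was -0.02 (95% interval -0.13 to 0.10). GM2A, which lifts GM2 ganglioside out of the membrane for HEXA, read 268, 262 and 280.4 CPM with ATF3 siRNA, 355, 341 and 358 CPM with APOE siRNA and 332, 326 and 337 CPM with CXCL14 siRNA, against 264, 249 and 251 CPM in controls. It rose 1.38-fold with APOE siRNA (edgeR adjusted p = 4.43e-06) and 1.30-fold with CXCL14 siRNA (adjusted p = 1.97e-05). The acid ceramidase ASAH1 rose with both of these siRNAs as well, by 1.36-fold and 1.31-fold. The acid sphingomyelinase SMPD1, which makes ceramide from sphingomyelin, fell with both, averaging 17.7 CPM with APOE siRNA and 18.5 CPM with CXCL14 siRNA, against 23.5 CPM in controls (0.751-fold and 0.787-fold, adjusted p = 0.00325 and 0.00746). ARSA, the sulfatase of sulfatide, rose 1.24-fold with APOE siRNA (adjusted p = 0.00121) and fell to 0.782-fold of control with CXCL14 siRNA (adjusted p = 0.000244). None of these 5 genes was called with ATF3 siRNA.

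Progranulin, a secreted and lysosomal protein that binds prosaposin, is encoded by GRN, which had 732, 766 and 872 CPM with ATF3 siRNA, 939, 946 and 1038 CPM with APOE siRNA and 1108, 1206 and 1243 CPM with CXCL14 siRNA, against 691, 711 and 786 CPM in controls. The ATF3 libraries overlapped with the controls and the others did not. GRN rose 1.34-fold with APOE siRNA (edgeR adjusted p = 0.000341) and 1.63-fold with CXCL14 siRNA (adjusted p = 9.93e-07). The tripeptidyl peptidase TPP1 read 77.5, 75.9 and 78.4 CPM with ATF3 siRNA, 93.6, 102 and 91.6 CPM with APOE siRNA and 136, 141 and 137 CPM with CXCL14 siRNA, against 83.0, 65.8 and 70.3 CPM in controls. It was the gene with the smallest p among the 32 in the CXCL14 comparison, at 1.89-fold (log2 0.92 ± 0.08, edgeR adjusted p = 4.48e-08), and it rose 1.31-fold with APOE siRNA (adjusted p = 0.000644). PPT1, the palmitoyl-protein thioesterase, rose 1.21-fold with APOE siRNA (adjusted p = 0.00208) and stood at 1.10-fold with CXCL14 siRNA (adjusted p = 0.0749). Its value is uncertain, since 23.4% of its exon bases overlap with the more abundant CAP1 on the other strand.

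The 6 membrane proteins all rose with CXCL14 siRNA, split into 4 higher and 2 lower with APOE siRNA, and gave no call with ATF3 siRNA. LAMP1, the main glycoprotein of the limiting membrane, had 421, 469 and 539 CPM with ATF3 siRNA, 493, 606 and 629 CPM with APOE siRNA and 527, 638 and 665 CPM with CXCL14 siRNA, against 447, 409 and 477 CPM in controls. Replicate 1 was the lowest library in each of the 3 knockdown groups, though APOE and CXCL14 libraries still stood above the controls. LAMP1 rose 1.30-fold with APOE siRNA (edgeR adjusted p = 0.0101, or 0.0562 without control replicate 2) and 1.37-fold with CXCL14 siRNA (adjusted p = 0.00186). Its relative LAMP2, which also serves chaperone-mediated autophagy, read 118, 108 and 106 CPM with ATF3 siRNA, 153, 143 and 155 CPM with APOE siRNA and 180.1, 168 and 169 CPM with CXCL14 siRNA, against 127, 119.8 and 116 CPM in controls. It rose 1.24-fold with APOE siRNA (adjusted p = 0.000942) and 1.43-fold with CXCL14 siRNA (adjusted p = 4.85e-06), with a difference of -0.13 on the log2 scale with ATF3 siRNA (adjusted p = 0.19). MCOLN1, the calcium channel of the lysosome, had 26.4, 31.5 and 35.5 CPM with ATF3 siRNA, 34.9, 35.2 and 39.4 CPM with APOE siRNA and 44.0, 53.1 and 50.8 CPM with CXCL14 siRNA, against 25.2, 24.8 and 26.4 CPM in controls. It rose 1.43-fold with APOE siRNA (adjusted p = 0.000694) and 1.93-fold with CXCL14 siRNA (adjusted p = 7.32e-07). The cystine exporter CTNS had 27.7, 23.1 and 27.3 CPM with ATF3 siRNA, 30.1, 31.0 and 30.0 CPM with APOE siRNA and 36.8, 41.7 and 39.7 CPM with CXCL14 siRNA, against 24.5, 20.8 and 22.2 CPM in controls, and rose 1.35-fold with APOE siRNA (adjusted p = 0.00087) and 1.75-fold with CXCL14 siRNA (adjusted p = 8.53e-07). For both genes the APOE and CXCL14 libraries were all above the controls.

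CD63 and SCARB2 were the 2 membrane proteins that fell with APOE siRNA. CD63, a tetraspanin of late endosomes and exosomes, read 382, 326 and 318 CPM with ATF3 siRNA, 213, 215 and 219 CPM with APOE siRNA and 344, 341 and 366 CPM with CXCL14 siRNA, against 309, 305 and 293 CPM in controls. It fell to 0.714-fold of control with APOE siRNA (edgeR adjusted p = 2.79e-05) and was called 1.16-fold higher with CXCL14 siRNA (adjusted p = 0.0144), a call lost without CXCL14 replicate 3 or control replicate 3 (adjusted p up to 0.0632). SCARB2, a membrane glycoprotein that also serves as an enzyme receptor, had 220.4, 249 and 244 CPM with ATF3 siRNA, 188, 176 and 176 CPM with APOE siRNA and 333, 318 and 310.3 CPM with CXCL14 siRNA, against 208, 228 and 227 CPM in controls. It fell to 0.815-fold of control with APOE siRNA (adjusted p = 0.00151) and rose 1.45-fold with CXCL14 siRNA (adjusted p = 2.86e-06), with no overlap in either. Because CD63 is abundant, the summed level of the 6 membrane genes with APOE siRNA, 218 to 243 FPKM, overlapped with that of controls, 231 to 240.3 FPKM, while with CXCL14 siRNA it was 292 to 323 FPKM.

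TFEB and TFE3 moved in opposite directions within each of the APOE and CXCL14 comparisons. TFEB had 10.8, 11.8 and 13.5 CPM with ATF3 siRNA, 15.02, 13.1 and 14.5 CPM with APOE siRNA and 7.32, 6.64 and 7.81 CPM with CXCL14 siRNA, against 7.91, 9.66 and 11.4 CPM in controls. It rose 1.47-fold with APOE siRNA (log2 0.56 ± 0.13, edgeR adjusted p = 0.00275) and was called lower with CXCL14 siRNA, at 0.754-fold (-0.41 ± 0.14, adjusted p = 0.0201). That lower call was lost without CXCL14 replicate 2 or control replicate 3 (adjusted p up to 0.127). TFE3 had 113, 105 and 117 CPM with ATF3 siRNA, 76.1, 77.1 and 87.1 CPM with APOE siRNA and 118, 117 and 126 CPM with CXCL14 siRNA, against 107, 103 and 110.4 CPM in controls. All APOE libraries lay below all controls, and TFE3 fell by 0.42 ± 0.07 on the log2 scale (edgeR adjusted p = 0.000138). With CXCL14 siRNA it was called higher, at 1.13-fold (adjusted p = 0.0425), and this call was lost in 7 of 20 settings: without control replicate 1 or 2, without APOE replicate 2, without any 1 of the CXCL14 libraries, and with no filter on low counts (adjusted p up to 0.159). With ATF3 siRNA the differences of TFEB and TFE3 were 0.31 (95% interval 0.05 to 0.58, adjusted p = 0.113) and 0.06 (-0.07 to 0.19, adjusted p = 0.589). These are transcript levels, and the nuclear location on which both factors' activity depends was not measured.

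**Figure D4:**
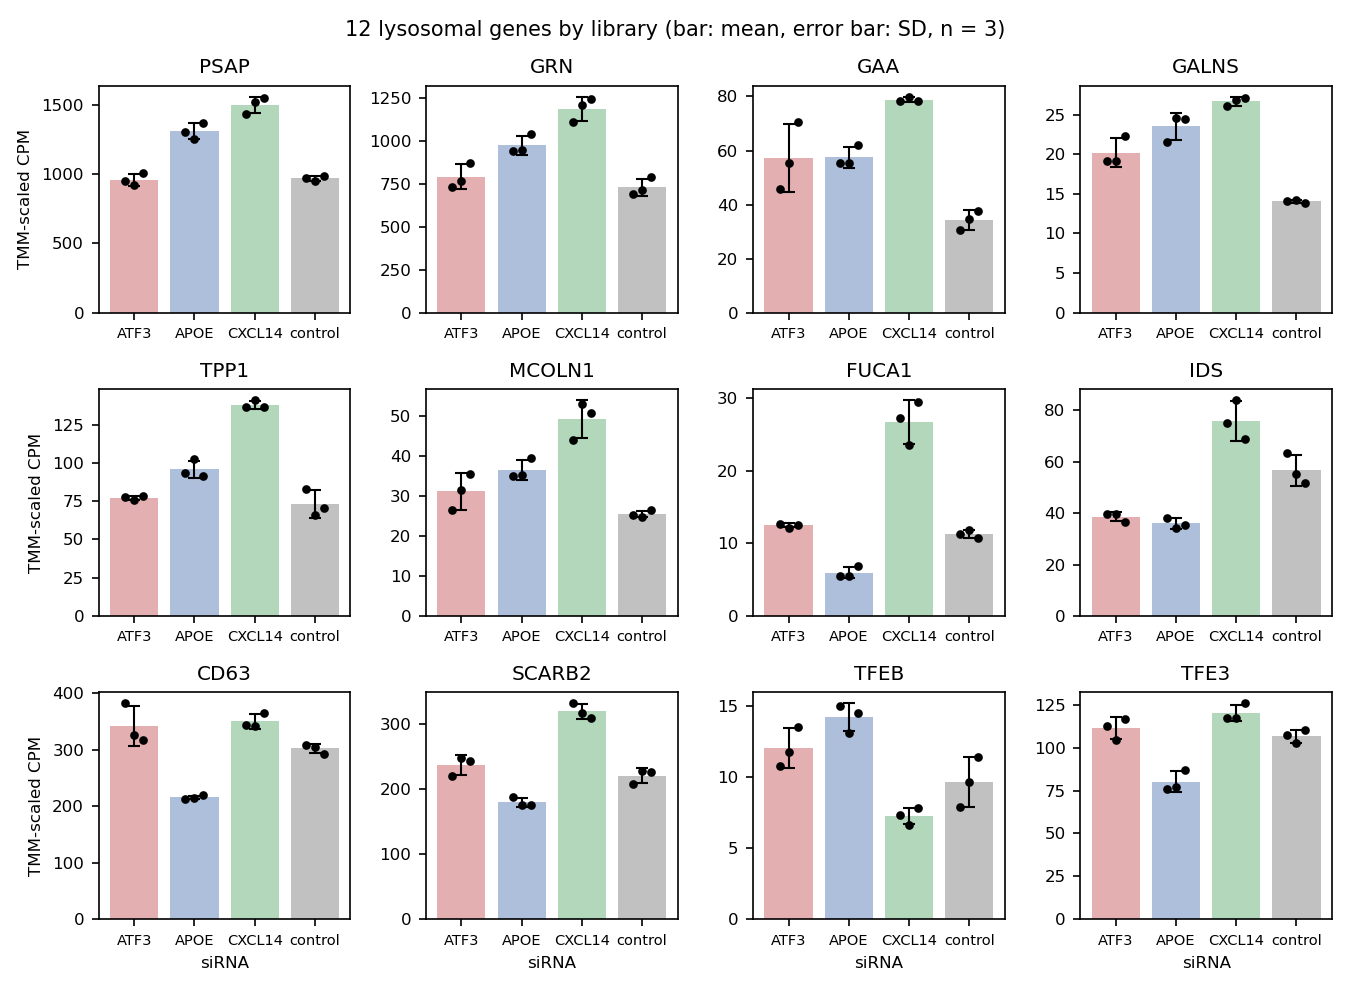
TMM-scaled CPM of 12 lysosomal genes, 1 panel per gene, with the ATF3, APOE, CXCL14 and control siRNA groups from left to right; points are libraries, bars the means and error bars the SD (n = 3). FUCA1, IDS, CD63, SCARB2 and TFE3 are below the controls with APOE siRNA, while PSAP, GRN and TPP1 are above them with APOE and CXCL14 siRNA.

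The 4 genes with a TCACGTGA palindrome in the promoter window, GAA, GALNS, LAMP1 and MCOLN1, were all called higher with APOE siRNA (median log2 fold change 0.63) and with CXCL14 siRNA (0.94), and 2 of them, GAA and GALNS, with ATF3 siRNA (median 0.40). Of the 20 matched genes without it, 12 rose and 6 fell with APOE siRNA (median 0.29), 14 rose and 3 fell with CXCL14 siRNA (median 0.34), and 2 rose and 1 fell with ATF3 siRNA (median 0.11). LAMP1, which held the most cores, rose by 0.37 with APOE siRNA and by 0.46 with CXCL14 siRNA, below the medians of the 32 genes (0.39 and 0.48). Among all 7 genes with the CACGTG core, CD63 was the one that fell with APOE siRNA and ARSB the one not called with CXCL14 siRNA. The medians of these 7 were 0.52 with APOE siRNA, 0.47 with CXCL14 siRNA and 0.28 with ATF3 siRNA. The 17 matched genes without the core had medians of 0.28, 0.38 and 0.10 in that order. With CXCL14 siRNA the gap for the core was thus much narrower than that for the palindrome. Over all genes tested, 22.3% rose and 22.5% fell with APOE siRNA, 27.4% and 28.4% with CXCL14 siRNA, and 11.2% and 9.14% with ATF3 siRNA. HEXA, MANBA, ARSA, NAGLU, SGSH, ASAH1, PSAP and LAMP2 had no window and are in neither group. All of them were called higher with APOE siRNA, at log2 0.31 to 0.62. With CXCL14 siRNA all but ARSA were called higher and ARSA lower, and with ATF3 siRNA only HEXA and NAGLU were called, both higher. The contrast by motif thus leaves out genes that mostly rose and whose motifs are unknown here. These groups were set out as a description and not tested.

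Set directly against each other, the 3 knockdowns left different lysosomal levels. In APOE against CXCL14 siRNA 5 of the 32 genes were higher (15.6%, against 28.9% of all genes) and 15 lower (46.9%, against 26.6%), with a median of -0.14 against 0.01. FUCA1 gave the widest gap, at 5.43 to 6.82 CPM with APOE siRNA and 23.5 to 29.4 CPM with CXCL14 siRNA, a log2 difference of -2.18 ± 0.11 (edgeR adjusted p = 1.68e-10). IDS (-1.08, adjusted p = 3.73e-08), SCARB2 (-0.83, adjusted p = 1.79e-08), CD63 (-0.70, adjusted p = 2.76e-07) and TFE3 (-0.59, adjusted p = 2.04e-06) were also lower with APOE siRNA. The genes higher with APOE siRNA were IDUA (1.39 ± 0.22, adjusted p = 4.25e-05), TFEB (0.97 ± 0.13, adjusted p = 1.29e-05), ARSA (0.66, adjusted p = 3.02e-07), GLA (0.46) and ARSB (0.43). Of the lower calls, SGSH was lost without APOE replicate 1, PSAP without APOE replicate 2 and LAMP2 without APOE replicate 2 or CXCL14 replicate 1 (adjusted p up to 0.0617, 0.0541 and 0.0884).

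In ATF3 against CXCL14 siRNA 6 genes were higher (18.8%, against 28.4% of all genes) and 22 lower (68.8%, against 25.3%), with a median of -0.31 against 0.00. The lower genes were led by FUCA1 (-1.10 ± 0.10, edgeR adjusted p = 2.04e-07), IDS (-0.97 ± 0.09, adjusted p = 1.26e-07) and TPP1 (-0.84 ± 0.08, adjusted p = 1.36e-07). IDUA (1.01), TFEB (0.72), ARSA (0.50), GLA (0.41), ARSB (0.31) and SMPD1 (0.28) were higher with ATF3 siRNA. Leaving out 1 library ended 6 of these calls, with adjusted p up to 0.161. They were GLB1 and ARSB (without ATF3 replicate 1 or 2 or CXCL14 replicate 2 or 3), MAN2B1 (ATF3 replicate 2 or CXCL14 replicate 3), GUSB (ATF3 replicate 3 or CXCL14 replicate 2 or 3), SMPD1 (ATF3 replicate 1 or 3 or CXCL14 replicate 1) and LAMP1 (CXCL14 replicate 3). In ATF3 against APOE siRNA 5 genes were higher (15.6%, against 20.3%) and 11 lower (34.4%, against 17.9%), with a median of -0.20 against -0.01. FUCA1 (1.08 ± 0.12, adjusted p = 2.6e-06), CD63 (0.67), TFE3 (0.48), SCARB2 (0.40) and SMPD1 (0.35) were higher with ATF3 siRNA, and MANBA (-0.47), PSAP (-0.45) and LAMP2 (-0.44) led the lower ones. MAN2B1 (without ATF3 replicate 2 or APOE replicate 2 or 3), NEU1 (without ATF3 replicate 2 or APOE replicate 3) and SMPD1 (without ATF3 replicate 3) lost their calls when 1 library was left out, with adjusted p up to 0.156. GAA, HEXA and NAGLU, all higher than control with both siRNAs, differed between ATF3 and APOE siRNA by -0.01 (95% interval -0.24 to 0.22), -0.02 (-0.18 to 0.13) and -0.02 (-0.33 to 0.29).

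Other genes of the lysosomal pathway were read from lists of known members, with the shares called and medians of all genes as given above. Of 17 V-ATPase genes, which encode the pump that acidifies the lysosome, 6 rose and 3 fell with APOE siRNA, 12 rose and 3 fell with CXCL14 siRNA, and 6 rose and 1 fell with ATF3 siRNA, with medians of 0.09, 0.44 and 0.07 on the log2 scale. ATP6V1D fell by 1.10 with APOE siRNA on the log2 scale, ATP6V1E1, ATP6V0A1 and ATP6V0E1 rose by 0.73, 0.80 and 0.74 with CXCL14 siRNA, and ATP6V1A fell by 0.65 with ATF3 siRNA. The accessory subunit ATP6AP1 rose by 0.38 with ATF3 siRNA and by 0.87 with APOE siRNA. The list of 16 genes for mannose 6-phosphate tagging and enzyme delivery also counts SUMF1 and CTSA, which have other roles. NAGPA is counted both in this list and among the other hydrolases below. Of the 16 genes, 8 rose and 3 fell with APOE siRNA, 11 rose and 2 fell with CXCL14 siRNA, and 4 rose and 3 fell with ATF3 siRNA (medians 0.23, 0.43 and 0.06). SUMF1, the enzyme that activates all sulfatases (IDS, GALNS, ARSA, ARSB and SGSH among the 32), fell by 0.74 ± 0.08 with APOE siRNA (edgeR adjusted p = 1.32e-06) and rose by 1.15 ± 0.07 with CXCL14 siRNA (adjusted p = 1.86e-09). GNPTG, a subunit of the tagging enzyme, rose by 0.72 and 1.26 with the same siRNAs, and its partner subunit GNPTAB fell by 0.41 with ATF3 siRNA. CTSA, the protective protein that holds GLB1 and NEU1 in a complex, rose by 0.32 with ATF3 siRNA and by 0.68 with APOE siRNA.

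Of 21 other hydrolases and activators that passed the filter, 11 rose and 1 fell with APOE siRNA, 11 rose and 5 fell with CXCL14 siRNA, and 9 rose and 1 fell with ATF3 siRNA (medians 0.30, 0.31 and 0.15). The acid lipase LIPA rose by 0.42 with ATF3 siRNA and by 0.93 with CXCL14 siRNA, and HGSNAT, the membrane enzyme that acetylates heparan sulfate, fell by 0.66 with ATF3 siRNA. The phospholipase PLA2G15 rose by 0.66 with APOE siRNA. Of 23 other membrane proteins, 9 rose and 7 fell with APOE siRNA, 12 rose and 6 fell with CXCL14 siRNA, and 3 rose and none fell with ATF3 siRNA (medians 0.14, 0.27 and 0.11). With CXCL14 siRNA the sialic acid exporter SLC17A5 rose by 1.53 ± 0.11, whereas the sialomucin CD164 fell by 1.37 ± 0.06 and OSTM1, the partner of the chloride channel CLCN7, fell by 1.45 ± 0.08. CLCN7 rose by 0.76 and TMEM192 fell by 0.95 with APOE siRNA. LAMP3 and TMEM9, called higher with ATF3 siRNA at 0.63 and 0.33, lost the call without ATF3 replicate 2 or 3 (LAMP3) or without control replicate 1 or 2 (both), with adjusted p up to 0.0864 and 0.0621.

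The MiT/TFE factors and the mTORC1 machinery that controls them gave mixed signs: of 23 genes tested, 4 rose and 6 fell with APOE siRNA, 10 rose and 4 fell with CXCL14 siRNA, and 4 rose and 2 fell with ATF3 siRNA (medians 0.01, 0.14 and 0.00). FNIP2, a partner of folliculin in mTORC1 control of TFEB and TFE3, fell by 0.98 ± 0.09 with ATF3 siRNA, by 1.25 ± 0.09 with APOE siRNA and by 2.15 ± 0.10 with CXCL14 siRNA (edgeR adjusted p = 1.96e-06, 2.41e-08 and 4.5e-11). Folliculin itself, FLCN, rose by 0.33 with ATF3 siRNA and by 1.12 with CXCL14 siRNA. LAMTOR3, a scaffold subunit at the lysosomal surface, rose by 0.51 with ATF3 siRNA, fell by 0.85 with APOE siRNA and rose by 0.60 with CXCL14 siRNA. Of 18 autophagy genes, 8 rose and 3 fell with APOE siRNA, 12 rose and 3 fell with CXCL14 siRNA, and 1 rose and 2 fell with ATF3 siRNA (medians 0.21, 0.44 and -0.07). GABARAPL1, an LC3-family protein of the autophagosome, rose by 1.00 ± 0.07 with APOE siRNA and by 1.79 ± 0.07 with CXCL14 siRNA (adjusted p = 1.37e-08 and 1.11e-11), and the autophagy kinase gene ULK1 fell by 0.61 with ATF3 siRNA and rose by 1.10 with APOE siRNA. Other autophagy genes fell: WIPI1 by 1.13 ± 0.12 with APOE siRNA and NRBF2 by 1.44 ± 0.10 with CXCL14 siRNA (edgeR adjusted p = 1.02e-06 and 2.85e-09).

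**Figure D5:**
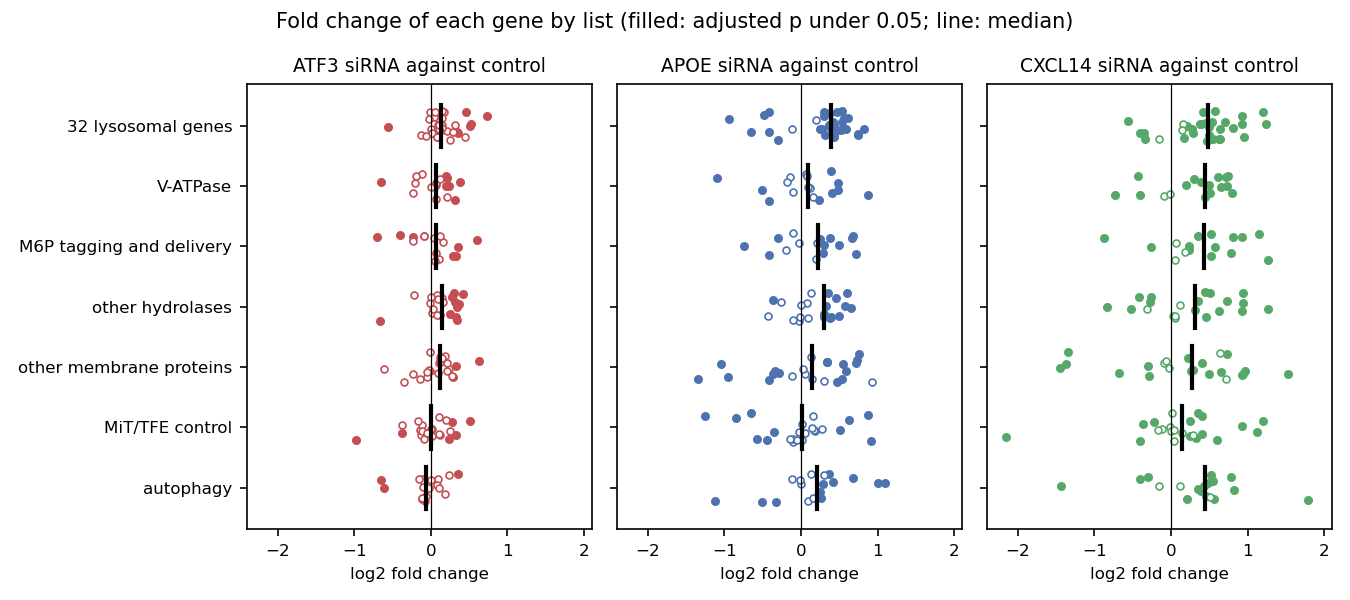
Log2 fold change against control siRNA (x axis) of each gene in the lysosomal set and in 6 lists of related genes (rows), 1 panel per siRNA, with filled points for called genes and a black line at each median. The median of the 32 lysosomal genes lies at 0.13 with ATF3 siRNA, 0.39 with APOE siRNA and 0.48 with CXCL14 siRNA.

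Keratinocyte state differed between the same groups. Of all genes tested, 11.2% rose and 9.14% fell in the ATF3 comparison with control. These shares were 22.3% and 22.5% in the APOE comparison, while the CXCL14 comparison gave 27.4% and 28.4%. Of 8 differentiation markers, 6 rose and none fell with ATF3 siRNA, while all 8 rose with APOE siRNA. Not far from the shares of all genes, 3 of these 8 markers rose and 2 fell with CXCL14 siRNA. Their summed level was 283.5 to 376 CPM with ATF3 siRNA, 334 to 408 CPM with APOE siRNA and 112 to 115 CPM with CXCL14 siRNA, against 106 to 128 CPM in controls. All 8 basal markers fell with CXCL14 siRNA, to a summed 21320 to 22440 CPM, with 32590 to 35610 CPM with ATF3 siRNA and 40020 to 42750 CPM with APOE siRNA, against 31870 to 34720 CPM in controls. With APOE siRNA the basal markers were split, 4 higher and 2 lower (lowest log2 fold change -0.58), and with ATF3 siRNA 1 was higher and 2 lower. KRT5 and KRT14 hold the most counts of this list, so its sums mainly follow them. Summed immune markers were 4.05 to 6.10 CPM with ATF3 siRNA, 7.96 to 9.12 CPM with APOE siRNA and 5.33 to 7.05 CPM with CXCL14 siRNA, against 2.98 to 4.396 CPM in controls. Of these 8 markers CD14 and CSF1R passed the filter; both were called higher with APOE siRNA, and with CXCL14 siRNA CSF1R was higher and CD14 lower. Summed fibroblast markers were 32.5 to 40.7 CPM with ATF3 siRNA, 74.2 to 87.8 CPM with APOE siRNA and 14.4 to 17.8 CPM with CXCL14 siRNA, against 25.4 to 34.2 CPM in controls. COL1A1, with 252 to 1651 counts per library, made up most of this sum; it was called higher with APOE siRNA (log2 1.48) and lower with CXCL14 siRNA (-0.92), and DCN, with 0 to 16 counts, was called higher with both. The other 4 fibroblast markers had at most 5 counts in any library. Summed melanocyte markers were 1.24 to 2.48 CPM with ATF3 siRNA, 1.81 to 2.64 CPM with APOE siRNA and 1.99 to 2.11 CPM with CXCL14 siRNA, against 1.15 to 2.19 CPM in controls, with no call. Summed endothelial markers were 0.665 to 0.730 CPM with ATF3 siRNA, 0.580 to 0.985 CPM with APOE siRNA and 1.37 to 1.58 CPM with CXCL14 siRNA, against 0.304 to 0.619 CPM in controls, and KDR, with 4 to 35 counts, was called higher with CXCL14 siRNA. The part of keratinocyte state and of these other markers in the lysosomal results was not tested.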

How the data were processed

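Poly(A) RNA from 12 libraries was analysed. Reads were aligned to hg38 with HISAT2 2.0.5 and counted with featureCounts 1.5.0-p3, per the submitters' processing notes; these notes give no strand setting. The authors deposited raw counts per gene, whose 58735 IDs all occur in GENCODE release 29, and FPKM values per library. The deposited FPKM values equal the counts divided by exon length and by each library's size factor times a constant shared by all libraries. They were used for levels between genes and not tested.

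Counts were fitted in edgeR 4.0.16 (R 4.3.3) with filterByExpr, TMM scaling and quasi-likelihood tests over all 12 libraries, and p-values were adjusted by Benjamini-Hochberg over 14920 genes. SEs were derived from the F statistic. The 95% intervals were built from these SEs on a normal distribution and are not adjusted over genes. An interval can therefore exclude no change for a gene that was not called. Per-library levels are TMM-scaled CPM. Steps were tested on simulated data. Alternatives were DESeq2 1.42.0, limma 3.58.1, other scalings and filters, the 2 groups compared alone, a replicate block, and leaving out each library.

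The members, classes and gene lists were chosen with earlier results of these data known. Values per library are given, for each siRNA against control, for the 8 or fewer called members that rank first by adjusted p and show no overlap between groups, and for TFEB, TFE3, LAMP1, LAMP2 and GRN. Up to 3 genes per list and comparison were named by adjusted p, except some that are not reported here; SUMF1, CTSA and others named in 1 comparison may also be called in the rest. SCARB2 was added to these after its values were seen. The level given for 3 counts covers counting error only. Promoters of 8 members and the authors' group-mean FPKM table were not used here.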

Additional observations from a re-analysis of the deposited data

How the results depend on the processing

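Of the 192 comparisons of a lysosomal gene, 130 were called, 109 of these under every alternative run, and none of the called values changed sign; signs of values past no threshold were not compared. Another 21 were lost and 21 uncalled ones gained under at least 1 alternative. Counts of called lysosomal genes stayed within 1.5 times under every alternative except the replicate block, which gave 17 lower calls for ATF3 against APOE siRNA, against 11 without it. Same-numbered libraries correlated in their deviations from the group means at -0.0208 to 0.234, above 0.1 in 11 of 18 pairs, and 11 of 12 libraries correlated best on average with their own number. That is a hint from the data and not the design, and the numbers were not taken as pairs. Leaving out each library in turn gave 5 to 8 higher and 1 lower call for ATF3 siRNA, 21 to 24 and 6 for APOE siRNA, and 23 to 25 and 3 to 4 for CXCL14 siRNA against control, and 9 to 15 lower calls for ATF3 against APOE siRNA; a stricter filter gave 16 there. Over all genes, ATF3 siRNA against control gave 1057 higher and 859 lower calls without control replicate 1, and 1678 and 1363 with it. Scaling by library size alone moved the median of all genes by -0.104 in ATF3 and by -0.123 in APOE against CXCL14 siRNA, where it added lower calls (24 and 19 lysosomal genes). Depth limits IDUA most, whose 49 to 154 counts per library gave the widest interval of the 32 genes in each comparison. The cause of these changes was not tested.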
